A study of Mus musculus with 6 samples.

Results

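Keratins, desmosomal proteins and precursors of the cornified envelope form the scaffold that gives epithelial cells their mechanical strength. The genes described here are those with a row in the deposited table whose symbol begins with Krt, Sprr, Dsg, Dsc or Pkp and a number, together with Dsp, Jup, Ppl, Evpl, Ivl, Tgm1, Tgm2, Cdsn, Cstb, Dst, Plec and Pof1b. Krt20 was left out of the definition. Membership followed gene names and not any measured value, but the set was chosen with earlier results of these data known. In all, 49 of the 16217 genes in the table were members, of which 24 were keratins. Another 3 names in the definition, Perp2, Csta1 and Cnfn, had no row and were not analysed here. Messenger RNA was measured by RNA sequencing in Hepa1-6, a mouse hepatoma cell line, with 3 libraries of cells stably carrying a lentiviral short hairpin against Ero1a (shERO1A) and 3 of cells carrying the control hairpin shNC, all selected with puromycin. Ero1a codes for a disulfide-forming oxidase in the endoplasmic reticulum, and the study concerns its knockdown in liver cancer cells. The sources used here do not say how many hairpins or clones stand behind each line, nor whether the 3 libraries came from separate cultures. Loss of Ero1a and any other difference between the lines therefore cannot be told apart, and the spread behind each p-value may be technical.

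Keratin filaments are built from obligate pairs of a type I and a type II chain. Krt8 and Krt18 are the pair of simple epithelia such as the liver, Krt19 is typical of bile duct epithelium, and Krt5 with Krt14 and Krt1 with Krt10 are the pairs of the basal and upper epidermis. Desmosomes join the filaments of neighbouring cells: cadherins of the Dsg and Dsc families span the gap, the armadillo proteins plakoglobin (Jup) and plakophilins (Pkp) bind their tails, and the plakin desmoplakin (Dsp) holds the keratins. In terminally differentiating keratinocytes, transglutaminases crosslink involucrin (Ivl), the small proline-rich proteins (Sprr) and plakins such as periplakin (Ppl) into the cornified envelope beneath the membrane.

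Levels are given in FPKM, fragments scaled to a length per gene and to the library total, and rest on between 38290505 and 39646829 reads per library. Ero1a itself stood at 37.8, 39.6 and 38.4 FPKM in shNC, against 15.0, 16 and 15.7 FPKM in the shERO1A libraries KD1, KD2 and KD3, so the libraries followed their labels. Of 11 hepatocyte markers, 5 had a row, among them Hnf4a at 41.1 ± 1.12 and Trf at 43.2 ± 1.76 FPKM in shNC (SD, n = 3), while Afp lay at 3.10 ± 0.0503 FPKM. Alb, Apoa1, Ttr, Ahsg, Fgb and Serpina1a had no row and were not analysed here. The summed hepatocyte markers ranged from 97.8 to 102 FPKM in shNC and from 85.5 to 94.4 FPKM in shERO1A. Of 7 biliary markers, 4 had a row, with Spp1 at 1034 FPKM and Sox9 at 29.2 FPKM in shNC. The other 3, Krt7 among them, had no row and were not analysed here. The summed biliary markers, most of it Spp1, ranged from 1328 to 1351 FPKM in shNC and from 979 to 1092 FPKM in shERO1A. Of the 5 intestinal markers with a row, Cdh17 and Tspan8 reached 222 and 101 FPKM in shNC. The summed intestinal markers ranged from 333 to 339 FPKM in shNC and from 298 to 316 FPKM in shERO1A. Of these 5 markers, 3 fell (limma): Cdx2 to 52.6% of control (adjusted p = 0.00151), Vil1 to 55.1% (adjusted p = 0.00215) and Tspan8 to 69.6% (adjusted p = 0.000967), while Cdh17 stood at 222 and 228 FPKM (adjusted p = 0.601). Of 4 tested hepatocyte markers, 2 fell, Hnf4a among them, and 1 rose, and of 4 biliary markers 3 fell, Krt19 among them. Over all tested genes, 8.23% were called lower and 9.48% higher. The part of these markers in the results below was not tested. The 7 stratified squamous markers with a row (Krt5, Krt14, Krt15, Krt10, Krt6a, Dsg3 and Col17a1) stayed below 1 FPKM in every library. Their sum was 1.44 to 1.74 FPKM in shNC and 1.43 to 1.65 FPKM in shERO1A. Fibroblast and stellate markers (6 with a row) and the endothelial markers Pecam1, Kdr and Vwf also stayed below 1 FPKM, whereas Cdh5 was measured at 10.1 FPKM in shNC and 18.3 FPKM in shERO1A. The summed immune markers ranged from 2.13 to 2.59 FPKM in shNC and from 2.07 to 3.24 FPKM in shERO1A. In bulk RNA, fewer cells of a kind and less RNA per cell cannot be told apart.

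Most tested genes of this scaffold were lower in shERO1A. A gene was tested where its 6 libraries averaged 1 FPKM or more, which held for 23 of the 49 members. Of these 23, 15 fell, 2 rose and 6 did not pass (limma with Benjamini-Hochberg adjustment over all tested genes, adjusted p under 0.05), so that 65.2% fell. Over all 10296 genes tested, 8.23% were called lower and 9.48% higher. The median log2 fold change was -0.44 over the tested members and 0.01 over all tested genes. Groups did not overlap in 19 of the 23 members, 17 of them lower in shERO1A, against 40% of all tested genes, 18.5% lower. Sprr2k and Krt16 passed the filter through their higher group only, with means of 0.809 FPKM in shERO1A and 0.754 FPKM in shNC. With no filter, all 49 members gave 13 lower and 3 higher, where 5.01% and 5.47% of 16217 genes were called lower and higher, and the median over the 49 was -0.10. KD3 differed from the other shERO1A libraries in a way that varied with gene length, with values given beside the plakins. Without KD3, 16 members were lower and 2 higher, where 13% and 14.7% of all genes tested were called. Of the 17 called members, 12 kept their call in each alternative analysis that tested them, and the other 5 were Krt8, Dsp, Dst, Sprr2d and Sprr2k.

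**Figure D1:**
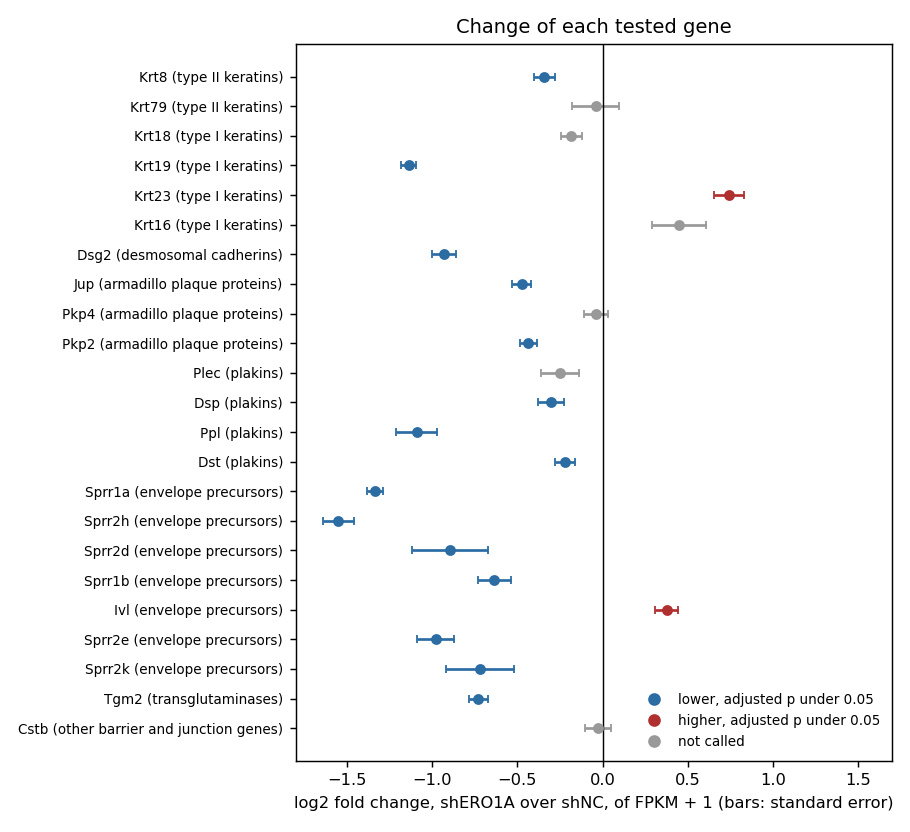
Log2 fold change of shERO1A over shNC on the FPKM + 1 scale for the 23 tested genes, with their roles. Points are limma estimates, bars are standard errors and colours mark calls at an adjusted p under 0.05. Sprr2h lies farthest to the left at -1.55, and Krt23 and Ivl are the called genes to the right of 0.

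Of the keratins, the simple epithelial chains made up nearly all of the signal, and the one that changed most was Krt19. Krt8 (Entrez 16691), the type II chain, stood at 1281, 1236 and 1263 FPKM in shNC, against 948, 990 and 1046 FPKM in shERO1A. All shERO1A libraries lay below all shNC libraries, and the mean of 1260 ± 22.8 fell to 995 ± 49.1 FPKM (SD, n = 3), which is 78.9% of control (limma log2 fold change -0.34, SE 0.06, adjusted p = 0.00902). That call was lost on leaving out shNC replicate 1, 2 or 3 (adjusted p = 0.0631, 0.0533 and 0.0625). Of the 50-base words of its transcripts, 29.7% also occur in other genes, among them the pseudogene Krt8-ps, so part of its reads could be shared. Its partner Krt18 (Entrez 16668) was at 1192, 1178 and 1167 FPKM in shNC, against 987, 1041 and 1087 FPKM in shERO1A. These groups did not overlap either, but the difference did not pass (log2 fold change -0.18, SE 0.06, limma adjusted p = 0.0817). It passed without KD3 (adjusted p = 0.000829), with voom on the recovered reads (adjusted p = 0.0225) and in the authors' deposited table (q = 0.00702). Both genes lie next to each other on chromosome 15, with 0 protein-coding genes between them in RefSeq, and rank 32 and 35 among all genes by mean FPKM.

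Krt19 (Entrez 16669), the type I chain of ductal epithelium, read 258, 259 and 255 FPKM in shNC and 115, 120 and 114 FPKM in shERO1A. The libraries of each group were tightly grouped and far apart from the other group, with a fall from 257 ± 1.95 to 116 ± 3.39 FPKM, or to 45.2% of control (log2 fold change -1.14, SE 0.04, limma adjusted p = 7.67e-06). None of its 50-base words is shared with another gene. Krt23 (Entrez 94179), a type I keratin known to be induced in injured mouse liver, moved the other way. It was at 10.3, 8.5 and 9.74 FPKM in shNC, against 15.1, 16.2 and 18.4 FPKM in shERO1A. Every shERO1A library exceeded every shNC library, and the mean rose 1.74-fold (log2 fold change 0.74, SE 0.09, limma adjusted p = 0.00133). Its immediate neighbour on chromosome 11, Krt20, which is no member here, stood at 168 ± 2.51 FPKM in shNC and 187 ± 7.38 FPKM in shERO1A (adjusted p = 0.069). Krt19 lies on the same chromosome with 49 protein-coding genes between it and Krt23.

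Summed over all keratin members, type I chains came to 1464, 1447 and 1435 FPKM in shNC and to 1120, 1180 and 1222 FPKM in shERO1A. Type II chains came to 1285, 1240 and 1267 FPKM and to 951, 993 and 1049 FPKM. As a description with no test, the sums in shERO1A were 81.1% and 78.9% of control. The type I to type II ratio was 1.14, 1.17 and 1.13 in shNC and 1.18, 1.19 and 1.17 in shERO1A, which are close values, while the make-up of the type I side differed between the groups. Krt18 made up 81.4% of the type I sum in shNC and 88.4% in shERO1A, Krt19 went from 17.8% to 9.93%, and Krt23 from 0.656% to 1.41%. Krt8 was 99.7% of the type II sum in both groups. Per unit of Krt8, Krt19 stood at 0.204 in shNC and 0.117 in shERO1A, and Krt18 at 0.936 and 1.04. With Krt20 counted among the type I chains, the type I sum in shERO1A was 0.842 of control.

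**Figure D2:**
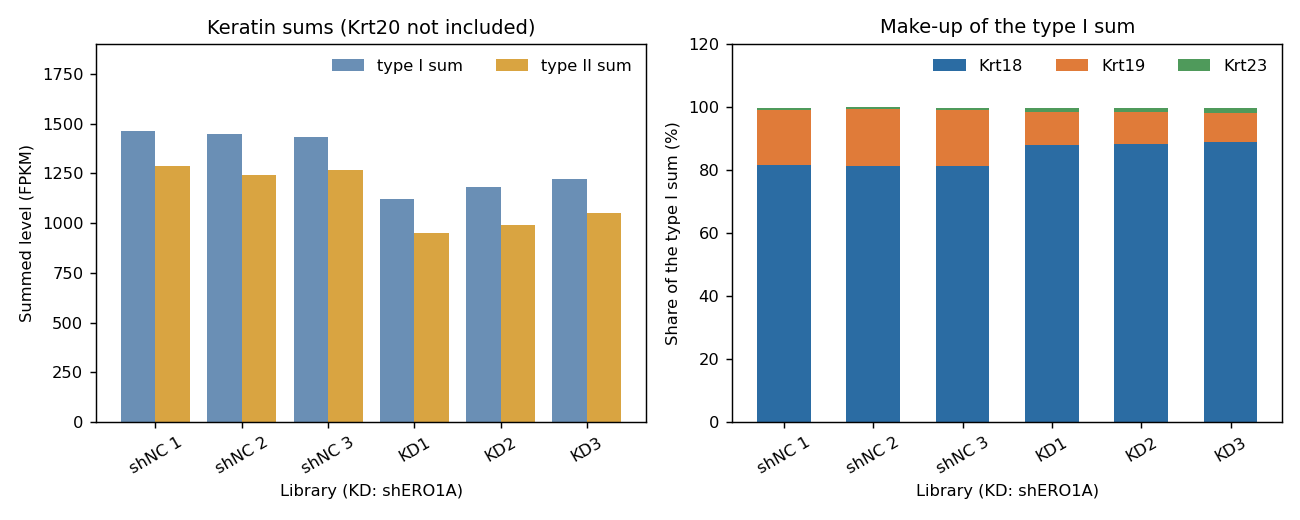
Left, summed FPKM of type I and type II keratin members in each library. Right, share of the type I sum held by Krt18, Krt19 and Krt23, in percent. The sums lie lower in KD1 to KD3, and the Krt19 share is 9.32% to 10.3% there against 17.7% to 17.9% in shNC.

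The other keratins were low in FPKM. Of 24 keratin members, 18 had a mean below 1 FPKM. Besides Krt80, 17 of them stayed below 1 FPKM in each library: Krt4, Krt5, Krt6a, Krt10, Krt12, Krt13, Krt14, Krt15, Krt17, Krt33a, Krt33b, Krt36, Krt39, Krt76, Krt78, Krt84 and Krt90. The highest single value among these 17 was 0.821 FPKM for Krt13. The epidermal basal chain Krt5 had 6, 1 and 0 reads in shNC and 0, 6 and 1 in shERO1A, and its partner Krt14 had 25, 18 and 20 against 22, 12 and 13. Krt10, of the upper epidermis, had more reads despite its low FPKM, with 153, 145 and 120 in shNC and 156, 132 and 162 in shERO1A. Krt17, a keratin induced by injury in skin, had 0 reads in each shNC library and 1, 8 and 0 in shERO1A, where a count of 0 allows up to 3 reads (counting error only). Krt6a, another injury keratin, lay at 0.467, 0.439 and 0.448 FPKM in shNC, against 0.288, 0.242 and 0.212 FPKM in shERO1A. It fell in the analysis with no filter (log2 fold change -0.22, limma adjusted p = 0.0153), but was not called in the authors' deposited table (q = 0.187). Of its 50-base words, 57.2% occur in other genes. Krt80 stood at 1.56, 1.03 and 1.02 FPKM in shNC and 1, 0.642 and 0.501 FPKM in shERO1A, just under the filter with a mean of 0.959 FPKM. The keratins just above it were Krt16 and Krt79. Krt16 read 1.15, 0.383 and 0.729 FPKM in shNC and 1.11, 1.44 and 1.51 FPKM in shERO1A, with overlap (log2 fold change 0.45, SE 0.16, limma adjusted p = 0.0949), and passed without shNC replicate 1 (adjusted p = 0.0403). Among the 50-base words of Krt16, 37.6% also occur in other genes, including Krt14 and Krt17. Krt79 ranged from 1.19 to 1.57 FPKM in shNC and from 0.907 to 1.68 FPKM in shERO1A (adjusted p = 0.863).

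The desmosome was represented by a single tested cadherin, which fell, as did the plaque proteins Jup and Pkp2. Dsg2 (Entrez 13511), the desmoglein of simple epithelia, was at 4.49, 4.25 and 4.27 FPKM in shNC, against 2, 1.71 and 1.7 FPKM in shERO1A. No shERO1A library came near the lowest control, and the mean fell from 4.34 ± 0.133 to 1.80 ± 0.168 FPKM, or to 41.5% (log2 fold change -0.93, SE 0.07, limma adjusted p = 0.000144). Dsg3, the desmoglein of the deep epidermis, had 0, 1 and 0 reads in shNC and 5, 0 and 7 in shERO1A. RefSeq lists 9 mouse Dsg and Dsc genes, of which these are the 2 with a row, and the other 7 were not analysed here. Per unit of Dsp, Dsg2 was at 0.157 in shNC and 0.0812 in shERO1A, whereas Jup was at 1.45 and 1.29.

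Among the armadillo proteins, Jup and Pkp2 fell by similar proportions. Jup (Entrez 16480) read 40.4, 38.8 and 41.4 FPKM in shNC and 29.8, 29.6 and 26.6 FPKM in shERO1A, a fall to 71.3% of control (log2 fold change -0.47, SE 0.06, limma adjusted p = 0.00123). Pkp2 (Entrez 67451), the plakophilin of simple epithelia and heart, read 10.6, 11.2 and 10.4 FPKM and then 7.85, 7.54 and 7.62 FPKM, a fall to 71.5% (log2 fold change -0.44, SE 0.05, limma adjusted p = 0.00124). All shERO1A libraries lay below all controls in both genes. Pkp4, a relative that also sits at adherens junctions, was at 16.8, 17.5 and 17.5 FPKM in shNC, against 18.2, 17.2 and 15.0 FPKM in shERO1A. Its groups overlapped (log2 fold change -0.04, SE 0.07, adjusted p = 0.721). The plakophilins of stratified epithelia were low. Pkp1 was at 0.281, 0.190 and 0.239 FPKM in shNC, against 0.441, 0.379 and 0.416 FPKM in shERO1A. It rose in the analysis with no filter (log2 fold change 0.19, limma adjusted p = 0.0347), but was not called in the authors' deposited table (q = 0.0905). Pkp3 lay between 0.493 and 0.515 FPKM in shNC and between 0.434 and 0.779 FPKM in shERO1A.

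Plakins are very large proteins that tie intermediate filaments to junctions. Ppl (Entrez 19041), periplakin, changed most, at 31.1, 30 and 30.5 FPKM in shNC and 15.8, 15.3 and 10.8 FPKM in shERO1A. It fell from 30.5 ± 0.546 to 14.0 ± 2.71 FPKM, or to 45.7% of control (log2 fold change -1.09, SE 0.12, limma adjusted p = 0.000915), and to a ratio of 0.509 without KD3. Desmoplakin (Dsp) was at 27.8, 27.7 and 27.5 FPKM and then at 23.8, 23.6 and 19.4 FPKM, a fall to 80.5% (log2 fold change -0.31, SE 0.08, limma adjusted p = 0.0306). The call of Dsp was lost with no filter (adjusted p = 0.0575) and without shNC replicate 1, 2 or 3 (adjusted p = 0.104, 0.103 and 0.101). Dystonin (Dst), which anchors keratins at hemidesmosomes in its epithelial form, was at 9.5, 9.92 and 10.1 FPKM and then at 8.71, 8.42 and 7.76 FPKM, a fall to 84.3% (log2 fold change -0.22, SE 0.06, limma adjusted p = 0.0362). Its call was lost with no filter (adjusted p = 0.0566), without KD2 (adjusted p = 0.0845) and without shNC replicate 1, 2 or 3 (adjusted p = 0.0814, 0.126 and 0.139). Plectin (Plec) was at 74.5, 77.4 and 79.0 FPKM and then at 72.1, 70.5 and 52.7 FPKM, with no overlap but a wide spread in shERO1A (log2 fold change -0.25, SE 0.11, limma adjusted p = 0.163). Without KD3 it passed with a smaller difference (log2 fold change -0.11, adjusted p = 0.0429). Envoplakin (Evpl), the partner of periplakin in the envelope, reached at most 0.144 FPKM.

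KD3 was the lowest shERO1A library in 4 of the 4 tested plakins, in 11 of the 23 tested members and in 41.6% of all tested genes. Its level relative to the mean of KD1 and KD2 varied with gene length. The median log2 difference was 0.17 for 2356 genes with an implied length up to 2000 bases, 0.01 for 4718 genes up to 5000 bases and -0.10 for 3222 longer genes. The plakins are long, with implied lengths of 6277 bases for Ppl, 9593 for Dsp, 17516 for Plec and 41154 for Dst, and their log2 differences were -0.48, -0.27, -0.43 and -0.13. The part of this library in the plakin values beyond those without KD3 was not tested.

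**Figure D3:**
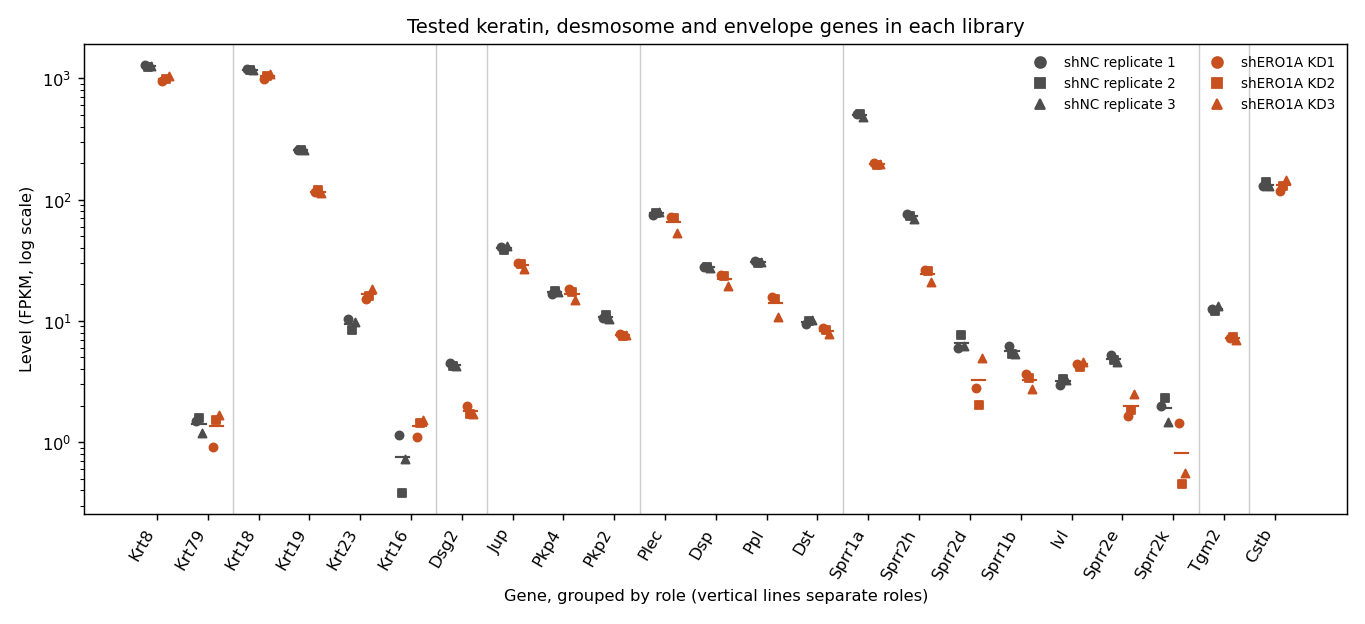
FPKM of the 23 tested genes in each library on a log scale, grouped by role, with bars at group means. Grey marks shNC and orange shERO1A, and the symbol shape marks the library. The KD3 triangle lies below the KD1 and KD2 symbols in Plec, Dsp, Ppl and Dst.

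The precursors of the cornified envelope held the largest changes, in opposite directions for Sprr genes and involucrin. The Sprr genes and Ivl lie together on chromosome 3, in the epidermal differentiation complex, and Sprr1a and Ivl are separated by 1 protein-coding gene, Sprr4, which was not analysed here. RefSeq promoters (build GRCm38.p6, 250 bases before to 50 after the start) were available for 31 of the 49 members. The 4 shown belong to the 2 members with the largest called fall, Sprr2h and Sprr1a, and the 2 that rose, Krt23 and Ivl. Capitals mark matches to the AP-1 motif TGANTCA and to TATAAA, searched on both strands. The windows are chr3:92385435-92385734 (plus strand) for Sprr2h, chr3:92485832-92486131 (minus strand) for Sprr1a, chr3:92573686-92573985 (minus strand) for Ivl and chr11:99493071-99493370 (minus strand) for Krt23.
Sprr2h: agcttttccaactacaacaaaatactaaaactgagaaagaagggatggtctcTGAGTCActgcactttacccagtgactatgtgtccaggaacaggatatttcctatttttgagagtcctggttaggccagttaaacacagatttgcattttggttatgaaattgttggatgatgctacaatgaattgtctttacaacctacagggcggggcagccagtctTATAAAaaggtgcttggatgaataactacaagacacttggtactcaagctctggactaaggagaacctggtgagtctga
Sprr1a: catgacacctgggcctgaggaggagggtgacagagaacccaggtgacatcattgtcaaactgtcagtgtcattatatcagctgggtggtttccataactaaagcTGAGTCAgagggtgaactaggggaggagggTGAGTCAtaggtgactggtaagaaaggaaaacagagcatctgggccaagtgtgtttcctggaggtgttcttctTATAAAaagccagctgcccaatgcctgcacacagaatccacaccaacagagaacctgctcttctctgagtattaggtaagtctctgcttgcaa
Ivl: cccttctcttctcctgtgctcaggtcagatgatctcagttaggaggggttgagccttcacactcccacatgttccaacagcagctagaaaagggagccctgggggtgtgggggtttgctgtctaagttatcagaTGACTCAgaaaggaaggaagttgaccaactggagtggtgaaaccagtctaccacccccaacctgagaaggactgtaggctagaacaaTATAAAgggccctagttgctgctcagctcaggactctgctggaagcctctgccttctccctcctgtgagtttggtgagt
Krt23: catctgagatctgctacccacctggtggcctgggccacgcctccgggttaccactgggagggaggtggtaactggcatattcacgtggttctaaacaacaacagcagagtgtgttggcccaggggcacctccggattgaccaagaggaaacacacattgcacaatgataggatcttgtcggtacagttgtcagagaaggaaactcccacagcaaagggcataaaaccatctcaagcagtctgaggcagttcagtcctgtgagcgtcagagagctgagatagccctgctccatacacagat

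TGANTCA was found in the promoters of all 7 Sprr members and of Ivl, and in 1 of the 23 other members with a promoter, while 7.81% of 32851 mouse promoters of the same length hold it. TATAAA was found in all 7 Sprr promoters and in that of Ivl, and in 6 of the 23 other members (26.1%), against 13.6% of all promoters. In Sprr1a the AP-1 matches began 146 and 116 bases before the start, in Ivl 116 bases before it and in Sprr2h 198 bases before it. An ETS core, GGAAGT, was found in Ivl, 101 bases before the start, and in 1 of the 7 Sprr promoters, that of Sprr2k, where 23.8% of all promoters hold it. The Krt23 window held none of these motifs. The TGANTCA and TATAAA matches were shared by the Sprr promoters and the Ivl promoter. Their part in the changes of these transcripts was not tested. The aligned Sprr1a promoter was 50.8% identical to that of Ivl and 49.6% identical to that of Sprr2h. Sprr2d and Sprr2e were 89.1% identical over the window. A match to a motif describes the letters and does not show binding.

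Sprr1a (Entrez 20753) was by far the most abundant precursor, at 511, 505 and 485 FPKM in shNC and 202, 193 and 198 FPKM in shERO1A. Its libraries formed separate, narrow groups, and the mean fell from 500.3 ± 13.8 to 198 ± 4.26 FPKM, or to 39.6% of control (log2 fold change -1.33, SE 0.05, limma adjusted p = 6.21e-06). By mean FPKM it ranked 156 among all genes of the table. Sprr2h (Entrez 20762) was at 75.9, 73.7 and 69.4 FPKM and then at 26.3, 26.1 and 20.8 FPKM, a fall to 33.4% (log2 fold change -1.55, SE 0.09, limma adjusted p = 4.4e-05). No 50-base word of either transcript is shared with another gene.

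The lower Sprr members followed the same direction with more spread. Sprr1b was at 6.24, 5.30 and 5.36 FPKM in shNC and 3.67, 3.40 and 2.76 FPKM in shERO1A (58.2% of control, limma adjusted p = 0.00387). Sprr2e was at 5.25, 4.8 and 4.57 FPKM and then at 1.65, 1.85 and 2.49 FPKM (41.0%, limma adjusted p = 0.000845). Both fell without overlap of the groups. Sprr2d was at 5.97, 7.71 and 6.21 FPKM and then at 2.79, 2.02 and 4.93 FPKM, KD3 being the highest (log2 fold change -0.90, SE 0.22, limma adjusted p = 0.0303). Its call was lost in 6 of 12 alternatives, with adjusted p from 0.0693 to 0.115, and without KD3 its ratio to control was 0.363 (adjusted p = 0.000227). Sprr2k, with 49, 57 and 36 reads in shNC and 35, 11 and 14 in shERO1A, fell to 42.1% (limma adjusted p = 0.0458) and lost its call in 8 of 12 alternatives, with adjusted p up to 0.157. Sprr2i had 7, 14 and 4 reads in shNC and 4, 1 and 2 in shERO1A and was not tested. Of the 50-base words of Sprr2d, Sprr2e and Sprr2i, 4.27%, 10.2% and 12.5% occur in other genes, so some of their reads may be split among copies. Summed over the 7 Sprr members, the level was 607, 600 and 572 FPKM in shNC and 238, 227 and 230 FPKM in shERO1A, with Sprr1a at 84.4% and 85.4% of the sum.

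Ivl (Entrez 16447), the glutamine-rich precursor onto which other envelope proteins are crosslinked, was at 2.94, 3.33 and 3.23 FPKM in shNC, against 4.46, 4.18 and 4.58 FPKM in shERO1A. All shERO1A libraries lay above the controls, and the mean rose 1.39-fold (log2 fold change 0.38, SE 0.07, limma adjusted p = 0.0074). The call held in each alternative that tested Ivl.

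**Figure D4:**
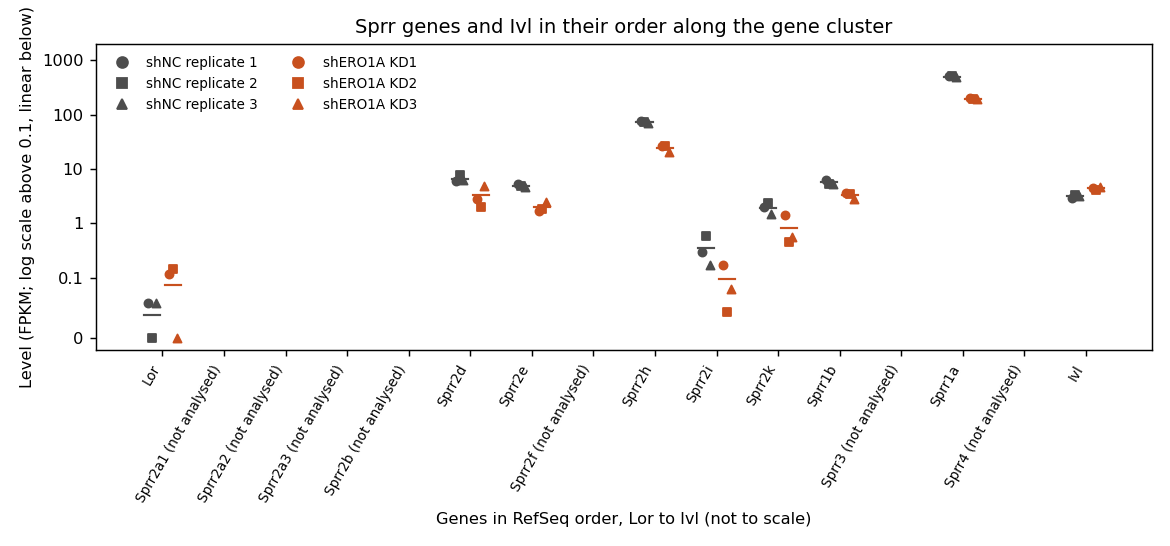
FPKM of Sprr genes and Ivl in each library, in RefSeq order from Lor to Ivl and not to scale; the axis is logarithmic above 0.1 FPKM and linear below. Bars are group means, and genes with no row are marked as not analysed. Sprr2d, Sprr2e, Sprr2h, Sprr2k, Sprr1b and Sprr1a have lower means in orange (shERO1A), and Ivl at the right end has a higher one.

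Of the enzymes and remaining envelope genes, Tgm2 (Entrez 21817) fell. Tissue transglutaminase, its product, crosslinks proteins in many tissues and is not specific to the epidermis. It was at 12.5, 12.0 and 13.2 FPKM in shNC, against 7.19, 7.40 and 6.94 FPKM in shERO1A, with no overlap, a fall to 57.1% of control (log2 fold change -0.73, SE 0.06, limma adjusted p = 0.00016). Of the 50-base words of its transcripts, 18.7% occur in other genes, among them Rprd1b. Tgm1, the transglutaminase of the epidermal envelope, reached at most 0.145 FPKM. Cstb, a cystatin that inhibits cathepsins, was at 129, 141 and 129 FPKM and then at 118, 129 and 145 FPKM, with overlapping groups (log2 fold change -0.03, SE 0.08, adjusted p = 0.838). Corneodesmosin (Cdsn) stayed at or below 0.192 FPKM. Pof1b, an actin-binding junction protein, was at 0.168, 0.138 and 0.124 FPKM and then at 0.0459, 0.0393 and 0.0635 FPKM. It fell in the analysis with no filter (log2 fold change -0.12, limma adjusted p = 0.0372), but was not called in the authors' deposited table (q = 0.0962).

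Other genes of epithelial anchorage and differentiation were taken from lists written with earlier results of these data known. Over the 5 lists, 24 of 51 genes with a row were tested, of which 9 fell and 2 rose, where 8.23% and 9.48% of all tested genes were called lower and higher. In the hemidesmosome list, 1 of 5 tested genes fell and 1 rose. Itgb4, the integrin chain that binds plectin, was at 18.5, 17.6 and 17.8 FPKM in shNC and 6.78, 6.08 and 5.05 FPKM in shERO1A (log2 fold change -1.45, SE 0.09, limma adjusted p = 5.85e-05). Its partner chain Itga6 stood at means of 104 and 101 FPKM (adjusted p = 0.568). Lamb3, a chain of the laminin that this integrin binds, rose from 7.57, 6.73 and 6.72 FPKM to 14.5, 14.1 and 13.5 FPKM (log2 fold change 0.91, limma adjusted p = 8.77e-05). Of 5 tested linker genes, 1 fell: Perp, a desmosomal membrane protein, was at 16.9, 16.7 and 16 FPKM and then at 10.3, 9.18 and 12.0 FPKM (log2 fold change -0.61, limma adjusted p = 0.00256).

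Of 40 genes of epidermal differentiation and barrier, 12 had a row and 1 passed the filter. That gene, Sbsn (suprabasin), fell from 1.47 ± 0.0535 to 0.731 ± 0.0473 FPKM (limma adjusted p = 0.00234). It passed the filter through shNC only, and with no filter it was called as well. Of 7 tested genes in the list of epithelial transcription factors, 5 fell and 1 rose. Those that fell include Hnf4a, counted above as a hepatocyte marker, and Esrp2, a splicing regulator rather than a transcription factor. The call of Esrp2 was lost in 4 of 13 alternatives. The ETS family members Ehf and Elf3 were at 24.4, 23.4 and 24.0 FPKM and at 15.5, 15.4 and 15.7 FPKM in shNC. In shERO1A, Ehf was at 11.4, 11.3 and 11.2 FPKM (log2 fold change -1.02, SE 0.04, limma adjusted p = 1.39e-05) and Elf3 at 12.2, 12.0 and 10.1 FPKM (log2 fold change -0.42, SE 0.07, adjusted p = 0.00656). Klf4, a factor of epithelial differentiation, fell from 24.4 ± 0.366 to 16.8 ± 0.569 FPKM (limma adjusted p = 0.000293). Gata3 rose from 1.81 ± 0.147 to 2.94 ± 0.467 FPKM (limma adjusted p = 0.0131), a call lost in 2 alternatives, with adjusted p up to 0.0605. Among 6 tested intermediate filament genes other than keratins, 1 fell. Nes, nestin, was at 71.1, 71.3 and 75.1 FPKM and then at 56.0, 59.2 and 48.1 FPKM (log2 fold change -0.41, SE 0.08, limma adjusted p = 0.00855). Vim, the filament of mesenchymal and many cultured cells, stood at 2519 ± 32.7 FPKM in shNC and 2181 ± 54.1 FPKM in shERO1A (log2 fold change -0.21, adjusted p = 0.0747).

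**Figure D5:**
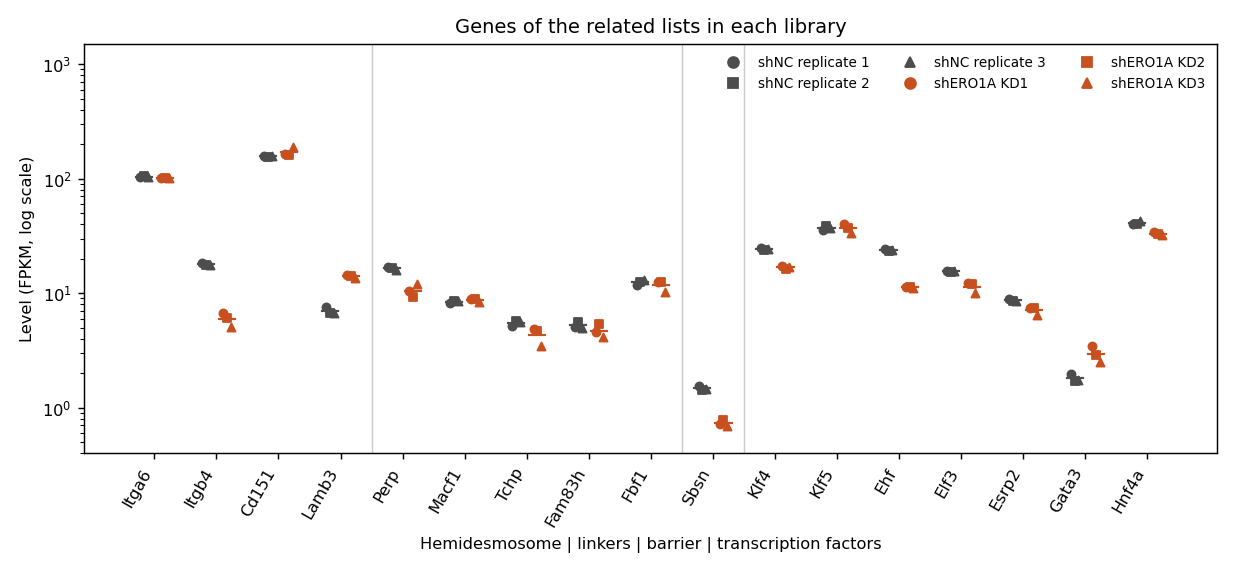
FPKM in each library, on a log scale, for tested genes of the hemidesmosome, linker, barrier and transcription factor lists that are reported here, separated by vertical lines. Bars are group means. Itgb4 (18 against 5.97 FPKM) and Ehf (23.9 against 11.3 FPKM) lie lower in shERO1A, and Lamb3 (7.01 against 14.0 FPKM) lies higher.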

How the data were processed

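RNA was extracted with TRIzol, per the labels' protocols. The submitters' processing notes name the aligner HISAT2 2.1.0, the counter HTSeq 0.11.2 and the build mm39. Annotation, strand setting and mRNA selection: not given in the sources used here. A single table was deposited. Its per-library columns carry no unit; they were taken as FPKM because, among the authors' deposited values, all 97302 (100%) came out within 0.01 of whole reads once divided by 1 factor per gene and library. Further columns hold, per the file headers, base means (a signal: counts over size factors, averaged over libraries), a fold change as a ratio, a log2 fold change, and a p-value and q-value, all made by the authors. The lowest deposited base mean is 1.14. The columns of shNC name single samples, whereas KD1, KD2 and KD3 name only the shERO1A group.

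The main fit was limma (version 3.58.1, R 4.3.3) on log2(FPKM + 1) of all 6 libraries, with an intensity trend and no covariate, for the 10296 genes averaging 1 FPKM or more, with Benjamini-Hochberg adjustment and a threshold of 0.05. Fold changes on that scale understate changes of low genes; ratios and percentages of control are of mean FPKM. Levels compare genes only per length. The fit and the recovery of reads were tested on simulated data. Every tested member is named, members under the filter by range, and from each other list changes are given for up to 4 called genes with the largest change. The values of 1 tested gene of the other lists are not reported here. Members, lists and motifs were chosen with earlier results of these data known. Implied gene lengths come from FPKM and recovered reads. Shared 50-base words were counted in GENCODE M21 transcripts. Promoters are RefSeq, build GRCm38.p6, which differs from mm39, so no coordinates were converted. Alternatives were another pseudocount, filter or scaling, no trend, voom, leaving out each library, and the authors' deposited calls.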

Additional observations from a re-analysis of the deposited data

How the results depend on the processing

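Over 13 alternatives, 253 gene values kept their direction and side of the threshold, 26 lost a call, 5 gained one and 5 changed sign. Sign changes arose when single libraries were left out, in genes not called. Across these, the log2 fold change of Cstb ranged from -0.10 to 0.041, of Krt79 from -0.14 to 0.11 and of Pkp4 from -0.10 to 0.033. Leaving out each library gave 10 to 16 lower and 2 to 3 higher members, where 4.45% to 13% and 4.74% to 14.7% of all genes were called, and 8 to 10 lower and 1 to 2 higher genes of the related lists. A filter at 5 FPKM left 1 higher member, since it tests fewer genes, and 1 higher gene of the related lists. Without Krt8 and Krt18 the type I sum, type II sum and their ratio in shERO1A were 0.505, 0.726 and 0.693 of control, and with Krt20 the ratio was 1.07 of control. With all keratin members, leaving out each library gave a type I sum of 0.794 to 0.829, a type II sum of 0.769 to 0.808 and a ratio of 1.02 to 1.04 of control. The addition of Krt20 was chosen after seeing the data. Negative binomial tests on counts were planned but not run, since the deposited unit was taken as FPKM. Instead, voom was run on the recovered reads. No paired analysis was possible because the shERO1A columns carry no sample replicate number. Depth limits the keratins with few reads.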
